A study of Homo sapiens with 6 samples.

Results

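Pyruvate dehydrogenase and the tricarboxylic acid (TCA) cycle were described through 34 of the 62252 genes quantified in these libraries. The members were taken from general knowledge of the pathway, by a rule that uses no measured value, though with earlier results of these data known: the mitochondrial pyruvate carrier, the subunits of pyruvate dehydrogenase with the kinases and phosphatases that act on it, the enzymes from citrate synthase to malate dehydrogenase other than aconitase and succinate dehydrogenase, and the malic, pyruvate carboxylase and phosphoenolpyruvate carboxykinase enzymes that feed or drain the cycle. The 34 genes have 392 annotated transcripts in the files. RNA came from K562, an established human erythroleukemia line that grows in suspension, after overnight exposure to 10 µM of the membrane-permeable iron chelator 21H7 (Chelator, 3 libraries) or to a matched volume of its solvent DMSO (DMSO, 3 libraries). All 6 libraries are of the same unmodified line, so that the findings concern a single leukemia line at a single dose and time. The replicates were described by the study as biological, and the labels did not tie a replicate number to a shared day or culture. The comparison asks how a shortage of usable iron changes the messenger RNA of central mitochondrial metabolism.

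Pyruvate made by glycolysis enters the mitochondrial matrix through a carrier made of the proteins MPC1 and MPC2. Pyruvate dehydrogenase, a complex of the E1 subunits PDHA1 and PDHB, the E2 subunit DLAT, the E3 subunit DLD and the E3-binding protein PDHX, turns it into acetyl-CoA. Kinases of the PDK family phosphorylate E1 and switch the complex off, and the PDP phosphatases switch it on again. Citrate synthase joins acetyl-CoA to oxaloacetate, and the following oxidations return the carbon skeleton to oxaloacetate while making NADH. PDK1 is widely known as a gene switched on by hypoxia-inducible factor (HIF), whose degradation needs iron-dependent prolyl hydroxylases that also use 2-oxoglutarate, an intermediate of the cycle.

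Library depth lay between 78615500 and 101094957 estimated counts, with at most 90383641 in DMSO and at least 85449857 in Chelator. The 7 erythroid markers examined, among them the fetal and embryonic globins and GATA1, were each at 1 TPM or more (TPM is the deposited abundance per transcript length, with an equal total for each library), with a summed TPM of 12285 to 13631 in DMSO and 17433 to 18621 in Chelator. The sum is mostly globin, and within the list HBE1 was higher in Chelator (log2 fold change 0.76) and TAL1 lower (-0.28, adjusted p = 3.84e-04). Of 7 markers of T cells, B cells, fibroblasts and hepatocytes, 2 reached 1 TPM in a DMSO library and 3 in a Chelator library, their summed TPM was 12.3 to 18.5 and 44.6 to 45.8, and the B cell marker MS4A1 was at 0 in every library. Most of that sum was CD3D, at a mean of 12.8 TPM in DMSO and 39.8 TPM in Chelator, and its part in the results was not tested. The median gap between a transcript's length and its effective length, which follows the length of the sequenced fragments, spanned 252 to 264 bases over the DMSO libraries but was at most 218 in Chelator, and this difference cannot be told apart from the treatment. In bulk RNA, fewer cells of a type and less RNA per cell cannot be told apart.

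After Chelator, 3 of the 4 kinases of pyruvate dehydrogenase (PDK1, PDK3 and PDK4) and the NADP-dependent isocitrate dehydrogenase IDH2 were higher. The pyruvate carrier subunit MPC1, the phosphatase PDP2 and 6 of the 15 genes from citrate synthase to malate dehydrogenase were lower by smaller amounts. Among the same 15 genes, IDH1, OGDHL and MDH1 were higher, as IDH2 was. Of the 34 genes, 33 had enough reads to be tested, and 22 of these (66.7%) had an adjusted p under 0.05 by DESeq2's Wald test, 9 higher and 13 lower. Over all 24542 genes with an adjusted p, 37.7% passed, 19.5% higher and 18.3% lower. Members are mostly abundant genes, and where the mean normalized count reached 1000 the share that passed was 63%, with 24.8% higher and 38.2% lower. Of the 28 members at that abundance 19 passed, 6 higher and 13 lower. The members' share was thus close to that of other genes at their abundance. Their median log2 fold change was -0.12 against 0.02 for all genes, and -0.14 against -0.09 for the abundant ones.

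With a further threshold, a log2 fold change beyond 1 in either direction, 5 of the 33 genes (15.2%) were called, and all 5 were higher in Chelator: PDK1, PDK3, PDK4, IDH2 and OGDHL. On build GRCh38, PDK1 (ENSG00000152256) lies at chr2:172555373-172608669, PDK3 (ENSG00000067992) at chrX:24465244-24550466, PDK4 (ENSG00000004799) at chr7:95583499-95596516, IDH2 (ENSG00000182054) at chr15:90083045-90102477 and OGDHL (ENSG00000197444) at chr10:49734641-49762379. Over all genes the same rule called 10.8%, of which those higher made up 8.18% of the genes tested. Normalized counts of the groups did not overlap for 24 of the 33 genes (72.7%), 10 higher and 14 lower, against 47.3% of all genes tested and 69.5% of the abundant ones. The remaining member, ME3, a mitochondrial malic enzyme, had no counts in DMSO and 0, 3 and 2 after Chelator, and did not enter the test.

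**Figure D1:**
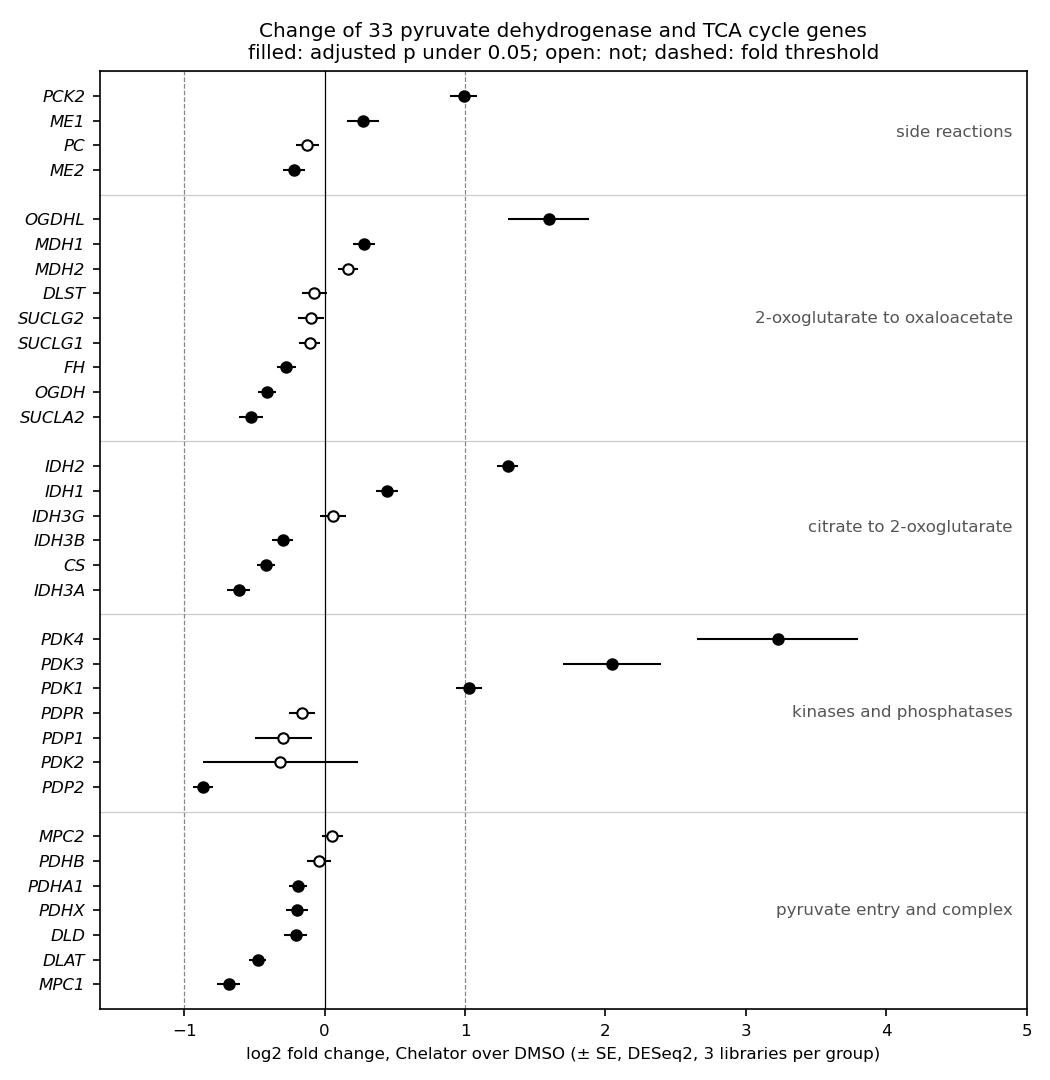
Log2 fold change of Chelator over DMSO (x axis, with its standard error from DESeq2, 3 libraries per group) for the 33 tested genes, grouped by role. Filled points have an adjusted p under 0.05, and only PDK1, PDK3, PDK4, IDH2 and OGDHL lie beyond the dashed lines at an absolute log2 fold change of 1 among those filled.

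In TPM, which divides by transcript length and so allows genes to be set side by side, MDH2 was the most abundant of the 34 genes in DMSO at 437 ± 32.3 TPM (SD, n = 3), clear of all others. PDHA1 and CS followed at 227 ± 22.2 and 227 ± 13.7 TPM with ranges that overlapped, and DLD came next at 175 ± 10.4 TPM, below both. These are sums over all transcripts of a gene. In DMSO, protein-coding transcripts held 33.4% ± 0.41 of PDHA1 TPM and retained-intron transcripts 62.7% ± 0.50. Protein-coding transcripts held 75.8% ± 0.70 of CS TPM, 63.2% ± 2.14 of MDH2 TPM and 52.1% ± 3.09 of DLD TPM. The order of genes need not hold for protein-coding transcripts alone. MPC1 and FH shared the following place, with overlapping ranges around means of 141 and 140 TPM. PDK1 was 28th of the 34, at 10.1 TPM in DMSO. PDP1, OGDHL, PDK2, PDK3 and PDK4 were all under 2 TPM in every library. IDH2 moved from rank 18 in DMSO to rank 8 in Chelator, PCK2 from 22 to 15, and MPC1 from 5 to 10. In Chelator the ranges of IDH2, MPC2, MPC1 and SUCLG1 overlapped, so ranks 8 to 11 are not resolved.

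Promoters of the called genes were examined for the core of the HIF response element, because PDK1 is known for it. RefSeq promoter windows, from 250 bases before to 50 bases after each start (build GRCh38.p14), were found for 32 members, with 47 windows in all. OGDH and PDP1 had no entry. The letters ACGTG or GCGTG on either strand were present in 29 of these 47 windows (61.7%) and in 48.4% of all 35116 windows, so the motif is common. By gene, at least 1 window held the letters for 6 of the 9 genes that were higher, 10 of the 12 that were lower and had a window, 7 of the 10 that were tested, did not pass and had a window, and the untested ME3. PDK4 and PCK2 had no match in their windows. The matches nearest the start for the called genes are shown 5′ to 3′ on the gene's strand, with the core, in either orientation, in capitals. They lie at chr2:172556065-172556094 for PDK1 (plus strand), chrX:24465213-24465242 for PDK3 (plus strand), chr15:90100619-90100648 for IDH2 (minus strand) and chr10:49762327-49762356 for OGDHL (minus strand).
PDK1: ctgcccgcCACGTccctCACGTaccactcg
PDK3: cgcgcgccgcgtACGTGcagcaaccgactc
IDH2: tggtaattcctgCACGCatcttttcctatt
OGDHL: gggcggctgcgtCACGTGacccaggtaatt
The RefSeq start used for IDH2 is internal to the gene as annotated by GENCODE, whose 5′ end is at chr15:90102477, and the PDK1 start shown is the inner of its pair of RefSeq starts. In PDK1 a pair of cores in the same orientation lies just before the start, and in OGDHL the cores of both strands overlap in a palindrome. A match of letters is a description of the window and does not show that a factor binds there.

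At the entry of pyruvate, 5 of the 7 carrier and complex genes fell and none rose. MPC1, a subunit the carrier cannot work without, was at 135.5, 143.8 and 142.5 TPM in DMSO and at 86.5, 92.7 and 89.5 TPM in Chelator. The groups were far apart and each was tight, and MPC1 fell by 0.68 on the log2 scale (SE 0.081, adjusted p = 4.52e-16). Its partner MPC2 had a log2 fold change of 0.05 (95% interval -0.09 to 0.20) and did not pass (adjusted p = 0.64), although it was 0.19 and past the threshold (adjusted p = 0.018) after removing the trends with GC content and length. The ratio of MPC1 to MPC2 TPM was 1.66 ± 0.014 in DMSO and 1.00 ± 0.030 in Chelator (SD, n = 3).

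DLAT, the acetyltransferase core of the complex, was at 108.6, 124.9 and 108.6 TPM in DMSO and at 83.1, 83.7 and 83.8 TPM in Chelator. All Chelator libraries were below all DMSO libraries, and DLAT fell by 0.48 on the log2 scale (SE 0.062, adjusted p = 2.01e-13). The other subunits fell less. PDHA1, the catalytic alpha subunit of E1, fell by 0.19 (adjusted p = 0.015), PDHX by 0.20 (adjusted p = 0.027) and DLD, the lipoamide dehydrogenase also used by the 2-oxoglutarate complex, by 0.21 (adjusted p = 0.037). All 3 calls were lost with TMM size factors, with edgeR and without Chelator replicate 2 or Chelator replicate 3. Limma on TPM lost PDHA1 and PDHX, and the fit without the length offset lost PDHA1 and DLD. The PDHA1 call was also lost without DMSO replicate 1, the PDHX call without DMSO replicate 3, and the DLD call without DMSO replicate 1, DMSO replicate 3 or Chelator replicate 1. After removing the trends with GC content and length, PDHX was at -0.03 and DLD at -0.04 (adjusted p = 0.75 for each). PDHB, the beta subunit of E1, had a log2 fold change of -0.04 (95% interval -0.21 to 0.13) and did not pass.

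Among the kinases and phosphatases, 3 of the 4 kinases rose and 1 of the 3 phosphatase genes fell. PDK1, by far the main kinase of these cells by TPM, was at 9.55, 11.6 and 9.19 TPM in DMSO and at 20.6, 19.5 and 22.6 TPM in Chelator. The groups did not overlap, and PDK1 was 2.04-fold higher, with a log2 fold change of 1.03 (SE 0.091, adjusted p = 6.31e-28). This value sits at the fold threshold: it was 0.95 without the transcript length offset, 0.92 with size factors centred on the mean log2 change, 0.99 in the limma fit of TPM, 0.9952 without DMSO replicate 3 and 0.97 without Chelator replicate 3, each time with an adjusted p far under 0.05 but no call at the fold threshold. Protein-coding transcripts held 99.2% ± 1.33 of PDK1 TPM in DMSO and 93.6% ± 0.53 in Chelator. PDK1-AS1, annotated on the opposite strand and overlapping PDK1 exons, rose from 0.566 to 2.37 TPM (log2 fold change 2.13, adjusted p = 9.62e-08). Since the sources used here do not state that strand was used in counting, reads of the pair cannot be told apart, although the antisense gene's TPM was small beside that of PDK1.

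PDK4, a kinase induced by fasting in many tissues, had 2, 10 and 6 estimated counts in DMSO and 85, 82 and 55 in Chelator. It was nearly silent in DMSO and still only at 0.266 to 0.353 TPM in Chelator, so that a large ratio (log2 fold change 3.23, SE 0.572, adjusted p = 1.31e-07) describes a rare transcript. PDK3 had 60.7, 85.9 and 60.0 estimated counts in DMSO and 139, 123 and 141 in Chelator, or 0.134, 0.144 and 0.286 TPM against 0.622, 0.732 and 0.984 TPM. Its log2 fold change of 2.05 (SE 0.346, adjusted p = 2.87e-08) included a change in mean effective length from 5870 bases in DMSO to 2159 bases in Chelator. Without the length offset it was 0.74 (adjusted p = 0.02) and not called. The shorter transcript PDK3-201 had 0, 0 and 17.4 estimated counts in DMSO and 53.7, 67.9 and 62.9 in Chelator, and transcript usage of PDK3 did not pass its own test (adjusted p = 0.71). PDK2, at 0.104, 0.288 and 0.454 TPM in DMSO and 0.240, 0.273 and 0.169 TPM in Chelator, did not pass, and its interval (-1.40 to 0.77) leaves changes in both directions possible at this depth.

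PDP2, a catalytic subunit of the phosphatase, was at 19.4, 24.0 and 20.8 TPM in DMSO and at 11.5, 12.6 and 11.8 TPM in Chelator. Every Chelator library was far below every DMSO library, and PDP2 fell by 0.87 on the log2 scale (SE 0.072, adjusted p = 2.85e-31), the largest decrease among the 33 genes, yet short of the fold threshold. PDP1, the other catalytic subunit, was at 1.39 ± 0.13 TPM in DMSO and 1.16 ± 0.24 TPM in Chelator with overlapping libraries and did not pass (adjusted p = 0.28), but did without the length offset (log2 fold change -0.39, adjusted p = 0.045). The regulatory subunit PDPR did not pass either (log2 fold change -0.16, adjusted p = 0.17), but did without DMSO replicate 1 (-0.24), without the length offset (-0.34) and with size factors centred on the mean log2 change (-0.26). The PDPR gene shares 23.9% of its 31-base words with other annotated genes, pseudogene copies among them, so its level is uncertain.

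Summed over the 4 kinases, TPM was 9.80, 12.05 and 9.96 in DMSO and 21.8, 20.9 and 24.1 in Chelator, a mean of 10.6 ± 1.25 against 22.2 ± 1.64. PDK1 made up 95.2% ± 2.66 of the sum in DMSO and 94.0% ± 0.42 in Chelator, so that the sum followed PDK1 and the composition of the pool moved by less than the spread of the DMSO libraries. The summed TPM of the 3 phosphatase genes was 44.9 ± 7.01 in DMSO and 33.2 ± 0.90 in Chelator. The ratio of summed kinase TPM to that of PDP1 and PDP2 was 0.475, 0.474 and 0.446 in DMSO and 1.73, 1.54 and 1.82 in Chelator. These are ratios of messenger RNA, with no measure of phosphorylation or enzyme activity in the data.

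**Figure D2:**
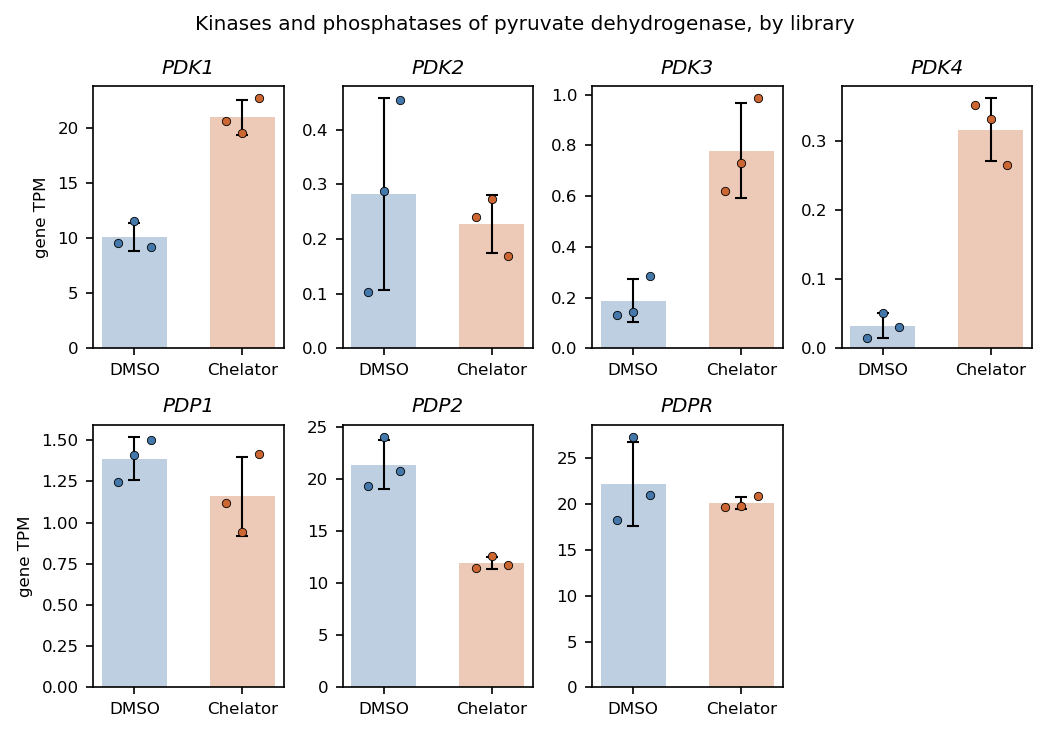
TPM (y axis, linear, a scale of its own in each panel) of the 4 kinases and 3 phosphatase genes of pyruvate dehydrogenase. Points are libraries, bars are means and error bars are SD (n = 3 per group). PDK1, PDK3 and PDK4 separate upwards, with PDK3 and PDK4 under 1 TPM, and PDP2 separates downwards.

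From citrate to 2-oxoglutarate, CS and 2 of the 3 subunit genes of the NAD-dependent enzyme IDH3 fell while the NADP-dependent enzymes IDH1 and IDH2 rose. IDH2, the mitochondrial NADP-dependent isocitrate dehydrogenase, was at 34.3, 41.3 and 35.1 TPM in DMSO and at 93.6, 88.2 and 96.3 TPM in Chelator. It was 2.47-fold higher, with a log2 fold change of 1.31 (SE 0.075, adjusted p = 2.82e-66), and was called at the fold threshold in every alternative run. IDH1, its cytosolic and peroxisomal counterpart, went from 46.2 ± 2.81 to 64.3 ± 1.55 TPM (log2 fold change 0.45, adjusted p = 8.11e-08). IDH1-AS1, which overlaps it on the opposite strand, was at 1.16 TPM in DMSO and 1.30 TPM in Chelator and did not pass.

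IDH3A, the catalytic subunit of the NAD-dependent isocitrate dehydrogenase of the cycle, was at 92.6, 107.8 and 109.6 TPM in DMSO and at 66.5, 71.6 and 69.3 TPM in Chelator. The groups did not overlap, and IDH3A fell by 0.61 on the log2 scale (SE 0.083, adjusted p = 3.09e-12). The regulatory subunit IDH3B fell by 0.30 (adjusted p = 2.16e-04), whereas IDH3G, also regulatory, had a log2 fold change of 0.06 (95% interval -0.12 to 0.24) and did not pass. The share of IDH3A in the summed TPM of the 3 subunit genes went from 39.2% ± 1.42 to 32.7% ± 0.80. Summed over IDH1 and IDH2, TPM was 83.1 ± 6.46 in DMSO and 157 ± 5.54 in Chelator, against 264 ± 15.9 and 212 ± 10.4 for the IDH3 genes, and the NADP-dependent genes went from 24.0% ± 1.23 to 42.6% ± 1.68 of the isocitrate dehydrogenase TPM.

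CS, which makes citrate, was at 227 ± 13.7 TPM in DMSO and 174 ± 0.68 TPM in Chelator and fell by 0.42 on the log2 scale (SE 0.065, adjusted p = 1.50e-09). CS shares 16.9% of its 31-base words with other annotated genes. ENSG00000144785 is among them, overlaps it on the same strand and went from 37.3 to 21.1 TPM (log2 fold change -0.86, adjusted p = 1.75e-07). How the reads of the pair were divided is therefore uncertain.

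**Figure D3:**
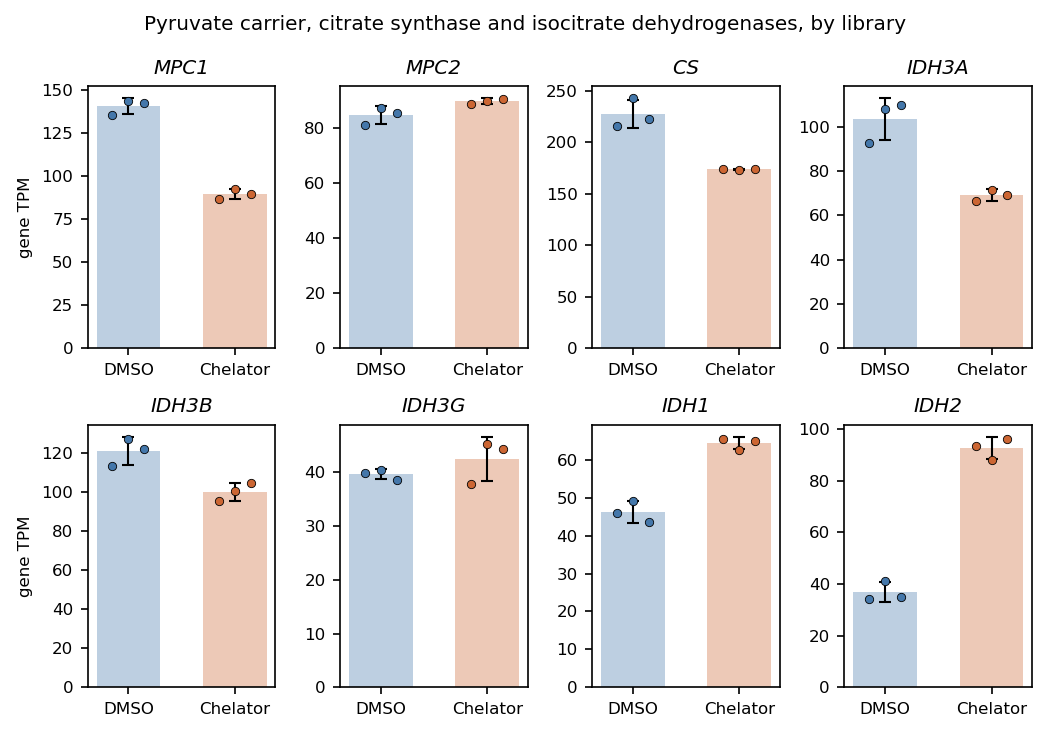
TPM (y axis, linear, a scale of its own in each panel) of the pyruvate carrier genes, citrate synthase and the isocitrate dehydrogenase genes. Points are libraries, bars are means and error bars are SD (n = 3 per group). MPC1, CS, IDH3A and IDH3B lie lower in all Chelator libraries, and IDH1 and IDH2 lie higher.

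From 2-oxoglutarate to oxaloacetate, 3 of the 9 genes fell, 2 rose and 4 did not pass. OGDH, the E1 subunit of the 2-oxoglutarate dehydrogenase complex, went from 63.3 ± 6.72 to 48.5 ± 0.54 TPM and fell by 0.41 on the log2 scale (adjusted p = 1.85e-09). OGDHL, a related protein encoded by a separate gene, had 117, 83 and 52 estimated counts in DMSO and 229, 275 and 236 in Chelator. Its groups did not overlap and its log2 fold change was 1.60 (SE 0.290, adjusted p = 2.84e-07), but at 0.398 ± 0.15 and 1.21 ± 0.24 TPM it stayed far below OGDH in both groups. DLST, the E2 subunit, did not pass (log2 fold change -0.07, adjusted p = 0.58).

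SUCLA2, the ADP-forming beta subunit of succinyl-CoA ligase, was at 27.9, 30.6 and 29.1 TPM in DMSO and at 20.9, 20.2 and 21.2 TPM in Chelator. All Chelator libraries were lower, and SUCLA2 fell by 0.52 on the log2 scale (SE 0.087, adjusted p = 1.24e-08). Neither the alpha subunit SUCLG1 (log2 fold change -0.11, 95% interval -0.25 to 0.04, but -0.21 and past the threshold with size factors centred on the mean log2 change) nor the GDP-forming beta subunit SUCLG2 (-0.09, -0.28 to 0.09) passed. The ratio of SUCLA2 to SUCLG2 TPM was 1.17 ± 0.056 in DMSO and 0.873 ± 0.078 in Chelator.

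FH, which hydrates fumarate to malate, fell by 0.27 on the log2 scale (adjusted p = 2.43e-04), from 140 ± 7.69 to 118 ± 0.82 TPM. MDH1, the cytosolic malate dehydrogenase, rose from 98.2 ± 3.10 to 122 ± 2.80 TPM (log2 fold change 0.28, adjusted p = 0.0012), a call lost with size factors centred on the mean log2 change. The mitochondrial MDH2 had a log2 fold change of 0.17 (adjusted p = 0.06) and did not pass, although its normalized counts did not overlap between groups, as was also the case for SUCLG1. MDH2 passed with TMM size factors (0.21), edgeR (0.21), limma on TPM (0.20) and no length offset (0.18), and without DMSO replicate 1 (0.22) and without Chelator replicate 1 (0.20), while it was 0.02 after removing the trends with GC content and length (adjusted p = 0.85) and 0.06 with size factors centred on the mean log2 change (adjusted p = 0.62).

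Of the 4 tested genes of the side reactions, 2 rose and 1 fell. PCK2, the mitochondrial phosphoenolpyruvate carboxykinase, which draws oxaloacetate out of the cycle, was at 26.5, 26.4 and 22.6 TPM in DMSO and at 53.0, 48.9 and 51.5 TPM in Chelator. It rose by nearly as much as PDK1, with a log2 fold change of 0.99 (SE 0.095, adjusted p = 5.76e-24), just short of the fold threshold. PCK2 was called with TMM size factors (1.04), with edgeR (1.04), without the length offset (1.03), without DMSO replicate 1 (1.08) and without Chelator replicate 2 (1.04). ME1, the cytosolic NADP-dependent malic enzyme, was at 13.8, 15.8 and 15.1 TPM in DMSO and at 21.1, 16.8 and 17.1 TPM in Chelator. Chelator replicate 1 was well above the other two, and the log2 fold change of 0.27 (SE 0.113, adjusted p = 0.041) was 0.14 and no longer past the threshold without it. The call was also lost when any single DMSO library was left out, whereas removing GC content and length trends raised the value to 0.49. The mitochondrial ME2 fell by 0.22 on the log2 scale (adjusted p = 0.016). That call was lost without DMSO replicate 1, DMSO replicate 3, Chelator replicate 2 or Chelator replicate 3, with edgeR and with limma on TPM. It was also lost after removing the trends with GC content and length (-0.06, adjusted p = 0.55). Pyruvate carboxylase, PC, did not pass (log2 fold change -0.12, adjusted p = 0.25), but was past the threshold after removing the trends with GC content and length (-0.31, adjusted p = 4.67e-05) and with size factors centred on the mean log2 change (-0.23, adjusted p = 0.038).

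The neighbouring genes of the pathway were 34 genes for aconitases, succinate dehydrogenase and its assembly, lipoylation, citrate export and acetate activation, dicarboxylate, oxoglutarate and aspartate carriers, glutamine and aspartate use, branched-chain and related dehydrogenases, the cytosolic PCK1 and the oxidation of 2-hydroxyglutarate. Of the 33 tested, 13 had an adjusted p under 0.05, 7 higher and 6 lower, 20 did not pass, and their median log2 fold change was -0.05. All 13 were among the 27 whose normalized counts averaged 1000 or more, a share of 48.1% against 63% of all genes at that abundance. Only ACSS2, which makes cytosolic acetyl-CoA from acetate, was called at the fold threshold, at 55.4 TPM in DMSO and 247 TPM in Chelator (log2 fold change 2.13).

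Which transcripts of a gene were used was tested apart from the gene's level. Of 30 members with at least 2 transcripts to compare, 5 were called (edgeR, Simes p over a gene's transcripts adjusted under 0.05 and a share change above 5 percentage points), namely PDHA1, DLD, IDH3A, IDH1 and IDH2, against 1101 of 11938 genes (9.22%) overall. This background was not matched for abundance or number of transcripts, so the counts do not show an excess among members. The annotated sequence at a splice site is shown for PDHA1 and IDH3A, although their shares cannot be read from that site alone. The last exon ends at chr15:78171945 in IDH3A-201 and at chr15:78169560 in IDH3A-207, and PDHA1-210 is a short transcript of 4 exons. For PDHA1-210, capitals mark the first bases of a retained intron (chrX:19351393-19351422, plus strand). For IDH3A, capitals mark the first bases of the exon joined to the preceding one, which ends at chr15:78160206 on the plus strand. That exon starts at chr15:78161581 in IDH3A-201 and at chr15:78161686 in IDH3A-207, 105 bases later (sequences from GENCODE release 44, build GRCh38).
PDHA1-210: tcgcagagcttacagGTTTGCTGTTGATTT
IDH3A-201: agatgggcttgaaagGCCCTTTGAAGACCC
IDH3A-207: agatgggcttgaaagGCTATAAAACCCCTT
The PDHA1 intron begins with the usual GT of a splice donor, and both IDH3A junctions share the upstream exon.

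PDHA1-210 is a 611-base transcript that runs 91 bases past the exon's end into the intron. Its part of PDHA1 TPM was 52.0%, 54.9% and 54.4% without the chelator and 44.9%, 41.5% and 42.4% with it. The groups did not overlap, and the share fell by 10.8 percentage points (adjusted p = 7.99e-07). Summed over all retained-intron transcripts of PDHA1 the share went only from 62.7% ± 0.50 to 59.8% ± 2.01, since other transcripts of that class took larger shares in Chelator. IDH3A-207, the protein-coding transcript with the shorter exon, held 35.4%, 29.9% and 32.9% of IDH3A TPM in DMSO and 41.7%, 43.0% and 43.1% in Chelator, a change of 9.87 points (adjusted p = 1.17e-04). Its own TPM went from 33.7 ± 2.1 to 29.5 ± 1.58 while that of the whole gene went from 103 to 69.1, so most of the lost IDH3A TPM belonged to other transcripts. Among transcripts with either form of the exon, those with the longer form, 12 in all, held 66.6% ± 2.67 in DMSO and 56.3% ± 1.18 in Chelator. IDH3A-207 was the only transcript with the shorter form, so these values largely restate its share, and no junction reads were counted.

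DLD-208, a 537-base transcript with no annotated coding sequence, held 17.7%, 15.9% and 24.8% of DLD TPM in DMSO and 4.42%, 10.5% and 12.9% in Chelator (a decrease of 10.2 points, adjusted p = 5.63e-07). Its groups did not overlap but varied widely within each. For IDH1, the retained-intron transcript IDH1-208 went from shares of 33.9%, 29.4% and 29.9% to shares of 20.4%, 17.3% and 22.3% of the gene's TPM, and the protein-coding IDH1-203, which has another first exon, from 9.83% ± 1.61 to 23.5% ± 2.2 (adjusted p for the gene 0.014). The TPM of IDH1-208 itself was 14.4 ± 1.26 and 12.9 ± 1.87, so the lower share went with a higher total for the gene. For IDH2, the share of the longest transcript, IDH2-201, went from 41.1% ± 6.14 to 25.6% ± 2.49 (adjusted p = 0.047) although its TPM rose from 15.01 ± 0.81 to 23.7 ± 1.99. The IDH2 call was lost without DMSO replicate 1, DMSO replicate 3, Chelator replicate 2 or Chelator replicate 3, and the IDH1 call without DMSO replicate 2, DMSO replicate 3 or Chelator replicate 2, whereas PDHA1, DLD and IDH3A kept theirs when any library was left out. The DLD call was lost with limma diffSplice, and the IDH3A call when a share change above 10 points was required. PDHA1-210, DLD-208 and IDH1-208 are all short transcripts, whose effective length depends most on the fragment length that differed between the groups, and its part in these shares was not tested.

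**Figure D4:**
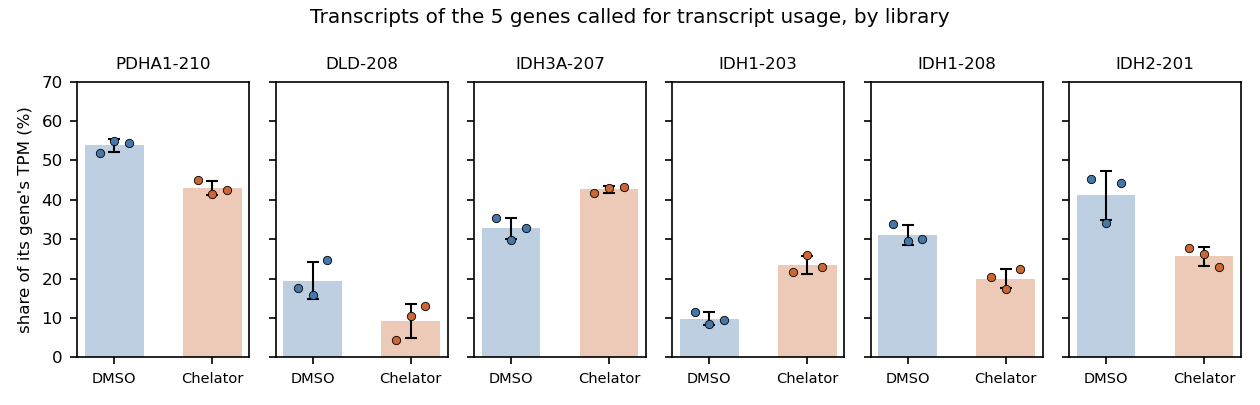
Share of its gene's TPM (y axis, percent) held by 6 transcripts of the 5 genes called for transcript usage. Points are libraries, bars are means and error bars are SD (n = 3 per group). PDHA1-210, DLD-208, IDH1-208 and IDH2-201 take smaller shares in Chelator, and IDH3A-207 and IDH1-203 larger ones.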

How the data were processed

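PolyA-selected RNA was sequenced as paired-end Illumina reads, and the authors quantified each library with salmon (version 1.10.2 in the submitters' processing notes) without pooling. The deposited estimated counts need not be whole, and the deposited TPM values are these counts per effective transcript length, scaled to the same sum. The annotation and the use of strand were not given in the sources used here.

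Of 252045 transcripts, 251142 matched GENCODE release 44 by version and length, 470 by identifier only and 433 not at all (0.139% to 0.15% of counts, left out). Counts were summed per gene and rounded. Genes with a total above 10 over the 6 libraries (26074) were tested with DESeq2 1.42.0 in R 4.3.3 (Wald test, median-ratio size factors, transcript length offset, Benjamini-Hochberg adjustment), following the study's stated test and thresholds. Transcript usage was tested with edgeR 4.0.16 (diffSpliceDGE, TMM, at least 10 counts in at least 3 libraries). Alternatives used limma 3.58.1 and others listed below.

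The 34 genes and the lists were chosen with earlier results of these data known. All 34 genes are accounted for, those past the threshold are given with values, and in each role the pair with the largest changes (mean normalized count of at least 100) and every called gene are given per library. IDH sums, the abundant-gene background and the IDH3A exon shares were added after seeing the data, as was the naming of GOT1, GOT2, SLC25A10 and SLC25A13. The ratios of MPC1 to MPC2, of SUCLA2 to SUCLG2 and of kinases to PDP1 and PDP2 were not among the planned results. Nor were the IDH3A share of the IDH3 genes and the promoter search. The p-values measure the spread between these libraries only.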

Additional observations from a re-analysis of the deposited data

How the results depend on the processing

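Of 491 gene and setting pairs, 424 kept their direction and their side of the threshold. Of the 22 genes past the threshold, 16 stayed past it with the same sign in every setting that gave a value, PDHA1, PDHX, DLD, MDH1, ME1 and ME2 lost it in at least 1, and none reversed. PDK3, PDK4 and OGDHL had no value in limma on log2(TPM + 1), being under its minimum. Reversed log2 fold changes were all of genes that had not passed: MPC2 -0.0512 and IDH3G -0.0423 with size factors centred on the mean log2 change, PDHB 0.0044 with TMM and 0.0045 with edgeR, PDHB 0.0080, IDH3G -0.16 and SUCLG2 0.0694 with GC content and length trends removed, and PDK2 0.0752 without the length offset. Leaving out each library in turn gave MPC2 -0.0033 (without DMSO replicate 2) to 0.0938, PDHB -0.1004 to 0.0150 (positive without DMSO replicate 1 or Chelator replicate 2), PDK2 -0.7339 to 0.3131 (positive without DMSO replicate 3) and IDH3G -0.0033 (without DMSO replicate 2) to 0.1238. Centring on the mean moved the median log2 fold change of all genes from 0.02 to -0.09 and gave 7 members higher and 16 lower, relative to that shift. TMM size factors gave 10 higher and 10 lower, and edgeR 10 higher and 9 lower. Leaving out Chelator replicate 2 or Chelator replicate 3 gave 9 higher and 9 lower. In every other setting with such a count, more members were lower than higher.

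With limma on TPM, 1 member (IDH2) and 814 genes were called at the fold threshold, and in a test against a log2 fold change of 1, 2 members (PDK4 and IDH2) and 674 genes, against 5 and 2646. Leaving out each library gave 18 to 21 members with an adjusted p under 0.05, 4 to 6 called, 2207 to 2607 genes called, and for transcript usage 4 to 6 members and 539 to 1063 genes, the lowest without Chelator replicate 3 and the next, 592, without Chelator replicate 2. Usage calls came to 9 members and 3184 genes with limma diffSplice, which did not call DLD, and to 728 genes at a share change above 10 points, which left out IDH3A. With median-ratio size factors IDH2 was not called for usage. With protein-coding transcripts alone the Chelator sums were 20.6 TPM for the kinases, of which PDK1 held 95.04%, and 27.7 TPM for the phosphatase genes, and with length-scaled normalized counts PDK1 held 94.7%. The cause of these moves was not tested.

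Same-numbered libraries deviated from their group means with correlations of -0.023, 0.086 and 0.041, so the replicate numbers were not taken to pair them. With the replicate block, 20 members had an adjusted p under 0.05 (not PDHX, adjusted p = 0.084, nor ME1, 0.053), 5 were called at the fold threshold, 2345 genes were called, and usage calls were 4 members (IDH2 lost) and 923 genes. Depth limits PDK2, PDK3, PDK4 and OGDHL, the tested genes with the fewest counts.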

Other observations

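Among the neighbouring genes, the paired cytosolic and mitochondrial aspartate aminotransferases moved in opposite directions. GOT1, the cytosolic form, rose from 55.7 to 99.7 TPM (log2 fold change 0.81), and GOT2, the mitochondrial form, fell by 0.61 on the log2 scale, from 154 to 103 TPM. SLC25A13, a mitochondrial aspartate and glutamate carrier, fell by 0.80, and SLC25A10, the dicarboxylate carrier, fell by 0.97, from 73.4 to 38.2 TPM. Each had an adjusted p under 0.05 by DESeq2, and these genes were chosen after their values were seen.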
